A study of Homo sapiens with 4 samples.

Results

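THP-1 cells activated with Pam3CSK4 were compared with resting THP-1 cells, gene by gene, on Affymetrix expression arrays. THP-1 is a human line derived from an acute monocytic leukaemia. Pam3CSK4 is a synthetic bacterial-type lipopeptide. Each gene was read through the probe set of highest mean level among the probe sets that name that gene alone. That mean was taken over all 4 arrays of the series, including those not compared here, which also held Pam3CSK4-treated cells. A gene was kept where this probe set reached the median of all deposited log2 values on either array compared. Of 19775 genes with such a probe set, 13139 passed: 12391 on both arrays, 335 on the Pam3CSK4 array only and 413 on the resting array only. The arrays compared were 2 of the 4 in the series. Just inside the filter lay SCARA3 at 6.1901 and RBP3 at 6.1903 on their brighter array, and just outside it GPRC5D at 6.1893 and ZSCAN12P1 at 6.1885.

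The 4 arrays held THP-1 cells in 4 conditions with no replicate: resting, Pam3CSK4-activated, and Pam3CSK4-treated cells kept with platelet-like particles for 12 h or for 24 h. The times are those of the sample descriptions, while the sample titles carry other numbers. The labels name no source cell for the particles, and the duration of Pam3CSK4 treatment on the array without particles was not stated in them. With 1 array a side there is no spread between cultures, so no test was possible and each difference below describes a pair of arrays. All 4 groups are the same leukaemic line and carry what sets that line apart from blood monocytes.

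Lipopeptides with 3 fatty acid chains are recognised at the cell surface by TLR2 paired with TLR1. The pair signals through the adaptor MyD88, the IRAK kinases and TRAF6 to the transcription factors NF-kB and AP-1. In monocytes and macrophages this pathway is known for inflammatory cytokine production, and it sets off negative feedback as well, of which the microRNA miR-146a, which targets IRAK1 and TRAF6 messages, is a textbook example.

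The arrays had near-equal medians, 6.192 for resting and 6.182 for Pam3CSK4 cells, and their probe sets ranked alike with a Spearman coefficient of 0.984. For GAPDH the 3' control probe set exceeded the 5' one, a gap that widens as RNA is shortened, by 2.16 log2 on the resting array against 0.59 on the Pam3CSK4 array, 0.92 at 12 h and 0.70 at 24 h with particles, so the resting array stood apart. For ACTB the gap was 3.41, 2.91, 3.17 and 2.90 in the same order. The poly(A) spike-in controls, added to RNA before labelling, were lower on the Pam3CSK4 array by similar amounts: -0.53 for dap, -0.54 for lys, -0.49 for phe and -0.58 for thr. These gaps and spike-in values moved with the comparison as a whole, and their part in the differences below was not tested.

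The monocytic label was checked on the markers LYZ, CD14, CSF1R, ITGAM, ITGAX, CD4, PTPRC, SPI1 and FCGR1A. LYZ, the lysozyme gene, stood at 12.98 on the resting and 13.70 on the Pam3CSK4 array. CD14, the lipopolysaccharide co-receptor, stood at 6.52 and 8.93, and CSF1R, the M-CSF receptor, at 8.04 and 8.67. FCGR1A, which encodes the high-affinity IgG receptor, was below the filter on both arrays at 4.94 and 4.48, so 8 of the 9 markers were above it. CD33, CD68 and HOXA9 were not analysed here. In bulk RNA such as this, more cells that express a gene and more of its RNA per cell cannot be told apart. The T cell markers lay below the filter throughout, with 0 of 5 passing and a mean level of 5.54 against 5.48. Markers of other types were mixed. NKG7, found in NK cells, was at 9.14 and 9.90, PAX5 and CD79A, found in B cells, were at 7.96 and 7.84 and at 7.47 and 7.50, and COL1A1, found in fibroblasts, was at 7.92 and 7.88. Averaged over a list, the shift between the arrays was -0.35 log2 for neutrophil markers, 0.28 for fibroblast markers and smaller for the other non-monocytic lists.

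The sequences below show the feedback microRNA and the promoter letters that recur among the higher genes. In the mature miR-146a-5p, given by RefSeq on GRCh38.p14 at chr5:160485372-160485393 on the plus strand, the capitals mark the seed, bases 2 to 8, through which it pairs with messages.
hsa-miR-146a-5p: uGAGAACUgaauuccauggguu
The next stretches come from RefSeq promoter windows on GRCh38.p14, 250 bases before to 50 after a gene's start. Each is printed on the gene's strand with the match in capitals. The first 6 are matches to GAAA, any 2 bases and GAAA, or its reverse complement, in genes with large positive differences. Every match printed lies wholly before its gene's start. The genes are examples and not a full ranking of those whose window holds a match. The letters are the core of the interferon-stimulated response element, ISRE, which STAT and IRF factors bind.
SGK1, chr6:134318311-134318344, minus strand: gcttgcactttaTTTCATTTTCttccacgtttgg
IFI44L, chr1:78620363-78620396, plus strand: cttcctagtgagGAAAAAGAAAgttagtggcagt
CXCL10, chr4:76023697-76023730, minus strand: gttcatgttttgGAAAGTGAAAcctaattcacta
CYBB, chrX:37779961-37779994, plus strand: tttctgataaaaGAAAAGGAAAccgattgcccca
BCL2A1, chr15:79971308-79971341, minus strand: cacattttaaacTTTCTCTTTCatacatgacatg
EPSTI1, chr13:42992270-42992303, minus strand: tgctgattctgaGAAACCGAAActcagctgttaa
The other 6 were chosen the same way for GGG, any 3 bases and TTCC, an NF-kB-type site.
EBI3, chr19:4229297-4229330, plus strand: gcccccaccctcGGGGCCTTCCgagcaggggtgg
CXCL10, chr4:76023653-76023686, minus strand: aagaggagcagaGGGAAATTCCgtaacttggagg
CXCL1, chr4:73869303-73869336, plus strand: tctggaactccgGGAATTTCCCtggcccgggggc
OAS3, chr12:112938333-112938366, plus strand: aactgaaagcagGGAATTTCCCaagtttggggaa
LPXN, chr11:58578156-58578189, minus strand: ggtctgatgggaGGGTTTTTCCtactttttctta
RGS1, chr1:192575655-192575688, plus strand: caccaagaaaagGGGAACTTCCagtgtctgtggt
CXCL10 holds both, with the ISRE match starting 221 bases and the NF-kB match 177 bases before its start.

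At least 2-fold higher with Pam3CSK4 were 541 genes, 2.74% of the 19775 and 4.12% of those that passed, and at least 2-fold lower were 229, which is 1.16% and 1.74%. The counts of gene lists below stand beside these shares, and a list with few members past 2-fold can lie near them. The higher side reached further. At 4-fold the counts were 190 and 28, at 8-fold 79 and 4, and at 16-fold 34 and 0. Of the higher genes 150 had a resting value under the filter, where background sets the size of the difference. Among the 12391 genes above the filter on both arrays, 391 (3.16%) were higher and 179 (1.44%) lower. The median difference of the genes that passed was -0.05, with an interquartile range from -0.22 to 0.13. The closest genes inside the threshold were TMTC2 at 1.0032 and MANSC1 at -1.0013, and the closest outside it were TAPBP at 0.9990 and PPP1R27 at -0.9992.

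**Figure D1:**
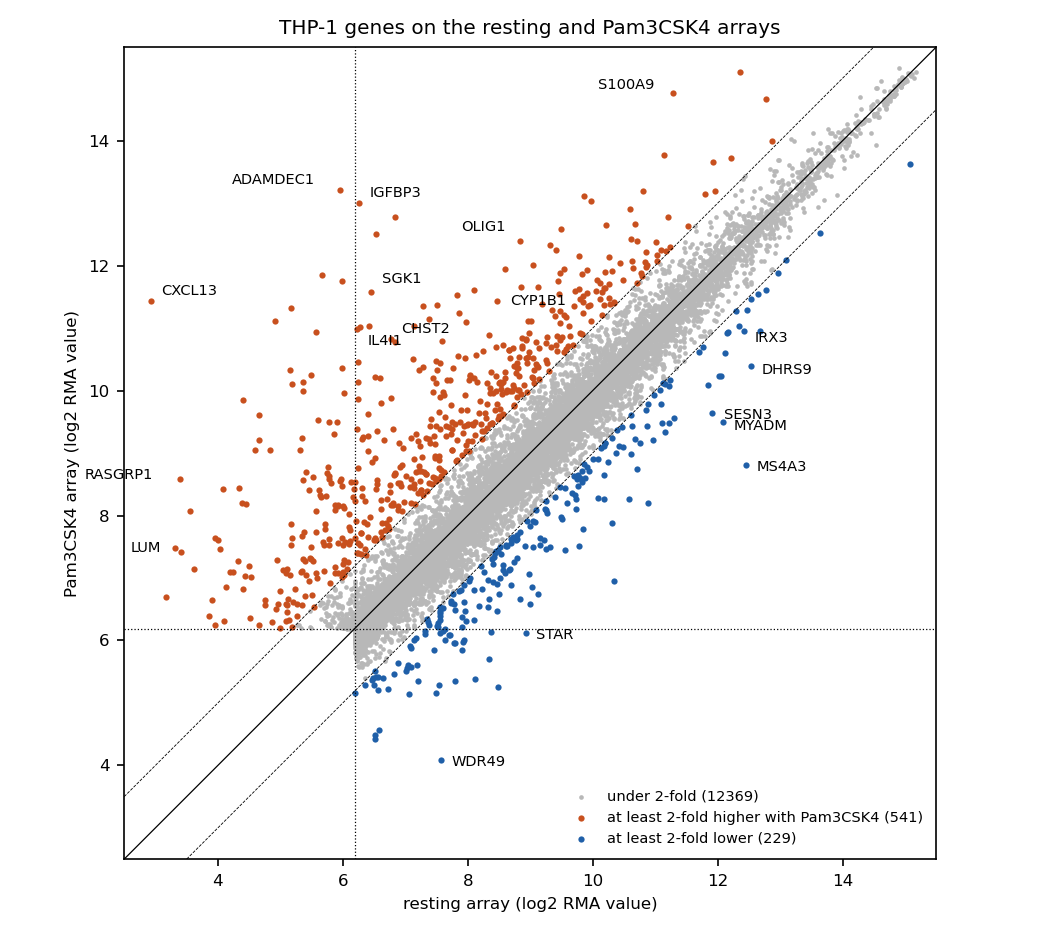
Each point is 1 of the 13139 genes that passed the filter, with its resting level on the x axis and its Pam3CSK4 level on the y axis, both log2 RMA values; dashed lines mark 2-fold and dotted lines the filter. The 541 higher genes (orange) spread far above the diagonal, many from resting levels near or under the filter, and the 229 lower genes (blue) stay closer to it.

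Neither gene of the receptor pair was counted as higher. TLR2 stood at 9.87 resting, 10.87 with Pam3CSK4, 10.23 at 12 h and 10.74 at 24 h with particles, a difference of 0.997 that lay just under 2-fold. TLR1 was below the filter on both arrays, at 4.38 and 5.97. TLR6, the other partner of TLR2, was at 5.70 and 6.52. LY96, which encodes the MD-2 subunit of the lipopolysaccharide receptor and was picked after its values were seen, was at 5.99 and 10.37. Downstream, the adaptor kinase gene IRAK2 was at 6.30 and 8.44.

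The feedback microRNA gene had one of the larger differences. The probe set assigned to MIR146A read 5.18 resting, 10.10 with Pam3CSK4, 10.13 at 12 h and 10.04 at 24 h, so the 3 arrays with Pam3CSK4 were alike and the resting array was low. Its other probe set above the filter differed by 0.35 only, and the mature miR-146a-5p printed above was not measured by these arrays. Of its textbook targets, IRAK1 stood at 12.20 and 11.81, a difference of -0.39, and TRAF6 at 7.96 and 7.91. These 3 genes were picked after their values were seen.

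Nucleic acid sensors were higher in 7 of 20 members with a probe set and lower in 1, and 16 passed the filter. Their median difference was 0.28, against -0.04 over all genes. TLR8, the endosomal receptor for single-stranded RNA, had the largest difference, from 4.39 resting to 9.85 with Pam3CSK4. IFIH1, which encodes the long double-stranded RNA sensor MDA5, stood at 7.53 and 9.66. RIGI, which senses RNA with a 5' triphosphate, stood at 6.55 and 8.57, though its 3 probe sets ranged from 0.16 to 2.03. The DNA sensor gene IFI16 was at 8.46 and 10.70, with all 3 probe sets past 2-fold. In the other direction lay STING1, the adaptor that answers cyclic dinucleotides, with 10.61 resting, 9.60 with Pam3CSK4, 8.60 at 12 h and 9.34 at 24 h. Differences of the 8 others that passed ran from -0.30 to 0.63.

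Genes of ISG15 conjugation and TRIM ubiquitin ligases had the highest median of the lists plotted, 0.99, and 10 of its 20 members were at least 2-fold higher with none lower. ISG15 is a ubiquitin-like protein that interferon induces. Its own gene stood at 9.54 resting and 11.94 with Pam3CSK4. The enzymes that attach it followed the same pattern: the E2 gene UBE2L6 stood at 8.83 and 10.54 and the E3 gene HERC5 at 7.46 and 9.27. USP18, whose product removes it, was at 7.28 and 8.33. TRIM22, an interferon-induced ligase, was highest of the list in difference, with 6.24, 10.45, 10.98 and 10.56 on the resting, Pam3CSK4, 12 h and 24 h arrays.

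Of the PARP family and antiviral enzymes 7 of 19 were higher and 0 lower, with a median of 0.38. PARP9 stood at 7.61 and 9.98, PARP14 at 7.73 and 9.77 and PARP12 at 8.28 and 9.56. These belong to the ADP-ribosyltransferases that interferon induces. CMPK2, a mitochondrial nucleotide kinase, was at 9.71 and 11.36, and RSAD2, which encodes viperin, was at 6.44 and 7.97. The remaining 10 that passed differed by -0.63 to 0.50, so the list was split between members past 2-fold and members near 0.

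Of 20 MHC class I and immunoproteasome genes only TAP1, the peptide transporter, passed 2-fold, at 9.83 and 10.91, and none was lower. The median was 0.25. TAPBP was at 10.64 and 11.64, HLA-B at 13.17 and 14.02, and B2M at 14.55 and 14.84. Levels near the top of the array's range can be compressed, and the HLA probe sets can bind related transcripts.

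Tryptophan, kynurenine and NAD metabolism genes were higher at 4 of 21, with 0 lower and a median of 0.15, and all 4 act in tryptophan breakdown. IDO2 read 3.86 resting, 6.40 with Pam3CSK4, 6.68 at 12 h and 6.43 at 24 h, just above the filter. TDO2, the liver-type tryptophan dioxygenase, read 5.56, 7.73, 9.20 and 8.87 on the same arrays. IDO1, the dioxygenase usually tied to interferon, stood at 7.41 and 7.89. In the steps that follow, KMO, the kynurenine monooxygenase, was at 7.16 and 8.18, and KYNU, kynureninase, at 10.83 and 12.06 with all 3 probe sets past 2-fold. IL4I1, a secreted amino acid oxidase that acts on phenylalanine and tryptophan, was among the genes with the largest differences. It stood at 6.23 resting, 10.99 with Pam3CSK4, 11.53 at 12 h and 10.95 at 24 h, a 27.2-fold difference between resting and Pam3CSK4. The resting value lay just above the filter, so background can bear on that size.

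AHR, the receptor for several tryptophan products, read 6.90 resting, 9.17 with Pam3CSK4, 9.72 at 12 h and 9.69 at 24 h. CYP1B1, a monooxygenase gene and textbook AHR target, read 8.47, 11.44, 11.89 and 11.76, and its 3 probe sets differed by 2.54 to 2.99. AHRR, the repressor of the receptor, was at 10.87 and 12.00. TIPARP, another textbook target picked after its values were seen, was at 8.90 and 10.09. For AHR and CYP1B1 the resting array was the low one and the 3 arrays with Pam3CSK4 lay close together. The circadian and nuclear receptor list that held AHR had 5 of 45 members higher and a median of -0.05.

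Of 59 Notch and Wnt genes 5 were higher and 1 lower, all of them Notch genes, and the median of the list was -0.03. DLL4, a Notch ligand, stood at 6.66 resting, 9.20 with Pam3CSK4, 8.75 at 12 h and 9.01 at 24 h. MAML2, a coactivator of the cleaved receptor, stood at 6.23, 9.39, 9.45 and 9.36. DTX4, a Deltex ubiquitin ligase of the pathway, stood at 7.14, 11.03, 11.25 and 11.11. LFNG, the glycosyltransferase that modifies the receptors, was at 7.10 and 8.58, but its other probe set differed by 0.02. HES1, a repressor that Notch induces, was at 6.36 and 8.23 (-0.16 without probe sets of the suffixes _x_at and _s_at, which can bind related transcripts), and HES6, known to oppose HES1, was the lower member at 9.79 and 8.60.

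**Figure D2:**
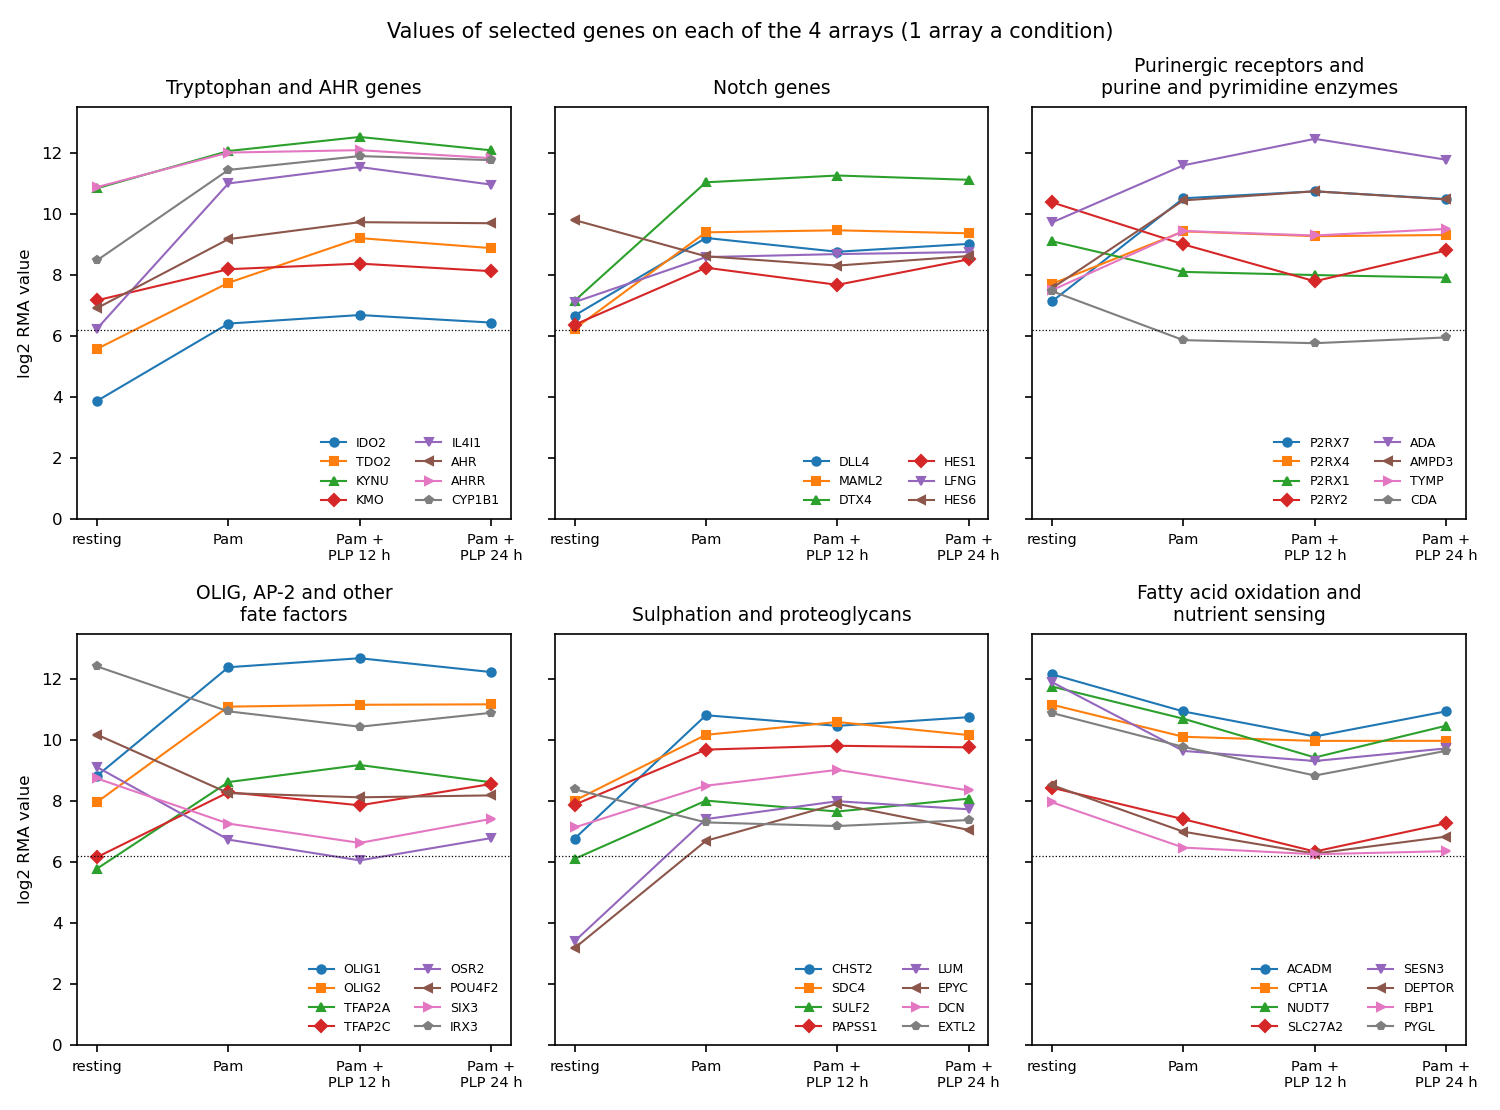
Lines join a gene's log2 RMA values on the resting, Pam3CSK4, and particle co-culture (PLP, 12 h and 24 h) arrays, 1 array a condition, in 6 groups of genes; the dotted line is the filter. In each panel the step lies mostly between the resting and the Pam3CSK4 array, as for DTX4 (7.14 to 11.03) and OLIG1 (8.83 to 12.39), and the families of the lower row were picked after their values were seen.

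From the ion channel and G protein-coupled receptor lists, whose counts follow, 5 receptors of extracellular purines were past 2-fold. They are named for that reason, and the purine receptors under 2-fold were not counted. P2RX7, the ATP-gated channel known for inflammasome activation, stood at 7.12 resting, 10.51 with Pam3CSK4, 10.73 at 12 h and 10.48 at 24 h. Its neighbour on chromosome 12, P2RX4, a channel of the same family, stood at 7.70 and 9.42. A further channel of the family, P2RX1, was lower, at 9.10 and 8.09. P2RY2, the G protein-coupled ATP and UTP receptor, was lower as well, with 10.37, 8.99, 7.78 and 8.79 on the resting, Pam3CSK4, 12 h and 24 h arrays. ADORA2B, an adenosine receptor, was at 7.58 and 8.63.

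Purine, pyrimidine and adenosine enzymes showed 5 of 47 higher and 2 lower, with a median of -0.15. AMPD3, which deaminates AMP, was at 7.56 and 10.44. ADA and ADA2, which deaminate adenosine, were at 9.71 and 11.59 and at 8.49 and 9.55. The pyrimidine phosphorylases TYMP and UPP1 were at 7.49 and 9.43 and at 6.02 and 7.29. CDA, which deaminates cytidine, was lower, at 7.46 and 5.85, and so was AK4, a mitochondrial adenylate kinase, at 9.21 and 7.60. The other 33 that passed lay between -0.72 and 0.48, and 24 of them were negative.

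Kinases and related signalling genes included 7 higher and 1 lower of 67. SGK1, a kinase induced by serum and glucocorticoids whose promoter stretch is printed above, had the largest difference of the list. It read 6.45 resting, 11.59 with Pam3CSK4, 12.67 at 12 h and 11.96 at 24 h. Of the Src family, LYN and FGR were higher, at 10.68 and 12.67 and at 7.47 and 9.14, whereas YES1 was lower at 9.75 and 8.63. IKBKE, the kinase that activates IRF factors, was at 8.53 and 10.03. The pseudokinase gene TRIB1 was at 7.33 and 8.67.

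Cytokine receptor chains were higher in 10 of 46 and lower in 2, with a median of 0.23. IL10RA, the ligand-binding chain of the interleukin-10 receptor, led at 7.85 resting, 11.25 with Pam3CSK4, 11.84 at 12 h and 11.16 at 24 h. Both chains of the interferon-gamma receptor were higher: IFNGR1 at 10.12 and 11.46, IFNGR2 at 10.64 and 11.96. IL27RA stood at 8.15 and 10.14, and CSF2RB, the shared chain for GM-CSF, IL-3 and IL-5, at 8.81 and 10.36. The lower chains were KIT, the stem cell factor receptor, at 8.47 and 6.47, and PRLR, the prolactin receptor, at 7.79 and 5.95. In the type I interferon receptor, chosen for comparison after its values were seen, IFNAR1 was at 8.38 and 9.16 and IFNAR2 at 9.83 and 10.03, both under 2-fold.

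Of the TNF receptor superfamily 4 of 28 were higher and none lower, with a median of 0.12. TNFRSF9, a costimulatory receptor of T cells, was at 5.41 and 8.70. TNFRSF1B, the second TNF receptor, was at 8.67 and 10.65. CD40, which binds the T cell ligand CD40L, was at 8.74 and 9.75, and its 4 probe sets differed by 1.01 to 2.53.

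SLAM family and lymphocyte-type co-receptors were higher in 6 of 20 and lower in 0, with a median of 0.23. SLAMF7 read 4.34 resting, 8.44 with Pam3CSK4, 10.27 at 12 h and 8.99 at 24 h, but its other probe set differed by 0.57. SLAMF8 read 6.60, 10.20, 11.08 and 10.51 on those arrays. CD48 and CD244, a ligand and its receptor, were at 6.41 and 9.27 and at 8.53 and 9.59. CD58, the ligand of CD2, was at 10.19 and 11.65 with all 4 probe sets past 2-fold. None of the 5 T cell markers measured reached the filter.

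Siglec, LILR and related paired receptors were split, with 2 of 36 higher and 2 lower. Over all genes 2.74% were higher and 1.16% lower. SIGLEC1, the sialic acid receptor of macrophages, was at 7.33 and 9.24, and SIGLEC5 was at 6.51 and 7.64. TREM2, a lipid-sensing receptor of macrophages and microglia, was lower at 12.12 resting, 10.61 with Pam3CSK4, 11.55 at 12 h and 10.98 at 24 h. LILRA2 was lower at 10.48 and 9.10, although its 4 probe sets reached from -1.38 to about 0. Among scavenger receptors 1 of 23 was higher and 1 lower: CD36 was at 8.33 and 10.89, and VLDLR was at 10.71 and 8.74.

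G protein-coupled receptors other than chemokine receptors were higher in 10 of 59 and lower in 2, and 37 passed the filter. GPR84, a receptor for medium-chain fatty acids, stood at 6.30 and 9.23. PTAFR, the receptor for platelet-activating factor, stood at 7.67 and 10.17. Receptors for chemoattractants included C3AR1 at 6.93 and 8.48 and FPR1 at 6.07 and 7.14. GPR183, which binds oxysterols, was at 6.91 and 8.52. The lower member besides P2RY2 was CYSLTR1, the cysteinyl leukotriene receptor, at 9.75 resting, 8.58 with Pam3CSK4, 7.60 at 12 h and 8.25 at 24 h. Of the chemokine receptors 1 of 22 was higher, ACKR3 from 4.50 to 7.20, and 1 lower, CXCR2 from 8.72 to 7.65. The shares over all genes were 2.74% and 1.16%. Regulators of these receptors' signals included RGS1, which shortens G protein signalling, at 4.00 and 7.61, and PDE4B, which degrades cyclic AMP, at 5.98 and 8.58. PDE7B, another cyclic AMP phosphodiesterase, was lower at 9.31 and 7.49.

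Haematopoietic transcription factors were higher in 15 of 83 and lower in 1, with a median of 0.09. PRDM1, the repressor known from plasma cells, stood at 7.84 and 10.55, and BCL6, the repressor known to oppose it in B cells, stood at 8.13 and 10.58. POU2F2 was at 7.77 and 10.37, but its 7 probe sets ranged from 0.07 to 2.60. KLF4 and MAF, both used by monocytes and macrophages, were at 8.93 and 10.52 and at 5.93 and 8.16. MYB, which maintains progenitors, was the lower member, at 12.97 resting, 11.88 with Pam3CSK4, 11.35 at 12 h and 11.75 at 24 h.

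Transcription factors better known from the embryo also differed, in both directions. This group of homeobox, OLIG, AP-2 and related factors was assembled after the values were seen, so its 9 higher and 7 lower of 47 members are a description only. OLIG1, an oligodendrocyte lineage factor, stood at 8.83 resting, 12.39 with Pam3CSK4, 12.69 at 12 h and 12.23 at 24 h. OLIG2, its relative, stood at 7.97, 11.10, 11.16 and 11.18. For both genes the resting array was low and the other 3 were close together. The AP-2 genes TFAP2A and TFAP2C were at 5.79 and 8.63 and at 6.16 and 8.29. Lower were OSR2 at 9.12 and 6.74, POU4F2 at 10.18 and 8.26, DACH1 at 7.92 and 5.98, SIX3 at 8.74 and 7.26, and IRX3 at 12.42 and 10.95.

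Lipid enzyme genes were higher in 10 of 61 and lower in 2, with a median of -0.01. PLA2G7, the secreted enzyme that breaks down platelet-activating factor, had the largest difference, with 5.57 resting, 10.93 with Pam3CSK4, 11.62 at 12 h and 11.28 at 24 h. Both this enzyme's gene and the receptor gene for its substrate, PTAFR, were thus higher. PLA2G4C, a cytosolic-type phospholipase, was at 7.29 and 10.38. ACSL1, which activates fatty acids, was at 9.48 and 11.09. In sphingolipid synthesis, UGCG, the first enzyme of the glycolipid branch, was at 8.73 and 10.08, and SGMS2, a sphingomyelin synthase, was at 5.08 and 7.08. The lower members were CPT1A and PLD4, the latter at 9.83 and 8.71.

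Fatty acid oxidation genes lay mostly on the lower side. In this group, assembled after the values were seen, 1 of 34 was higher and 4 lower, and the median was -0.18 against -0.04 over all genes. CPT1A, which admits long-chain fatty acids to mitochondria, stood at 11.16 resting, 10.11 with Pam3CSK4, 9.98 at 12 h and 9.98 at 24 h. ACADM, the medium-chain dehydrogenase, stood at 12.16, 10.94, 10.12 and 10.95. NUDT7, a peroxisomal coenzyme A hydrolase, was at 11.76 and 10.70, and the fatty acid transporter SLC27A2 was at 8.44 and 7.41. ACOX2, a peroxisomal oxidase of branched chains, was the higher one at 6.08 and 7.25. Of the other 28 that passed, 21 were negative, all within -0.60 to 0.52.

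Other groups of energy metabolism, also assembled after the values were seen, differed at a few steps. SESN3 and DEPTOR, whose products restrain the mTOR kinase, were the lower members among 35 nutrient-sensing genes with 0 higher and a median of 0.01. SESN3 read 11.90 resting, 9.65 with Pam3CSK4, 9.32 at 12 h and 9.73 at 24 h, and DEPTOR read 8.52, 6.997, 6.28 and 6.84. Of 26 gluconeogenesis and glycogen genes 0 were higher and 2 lower, with a median of -0.22. FBP1, a gluconeogenic phosphatase, was at 7.96 and 6.48, and PYGL, glycogen phosphorylase, at 10.89 and 9.78. Of 13 pentose phosphate and malic enzyme genes, a side of NADPH supply, 2 were higher and 0 lower, with a median of -0.05. PGD of the pentose phosphate pathway was at 9.80 and 11.46, and malic enzyme, ME1, at 9.54 and 11.21. Of the other 10 that passed 7 were negative, ME3 the furthest at 9.30 and 8.38. NQO1 and GCLC, textbook targets of NRF2, were at 8.97 and 11.11 and at 8.63 and 10.004, and HMOX1, haem oxygenase, was at 5.63 and 8.33. Catalase, CAT, was lower at 12.78 and 11.61.

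Lists of serine and one-carbon synthesis, ribosome biogenesis and aminoacyl-tRNA synthetases had medians under the -0.04 of all genes. Over all genes 2.74% were higher and 1.16% lower, so a list of this size can hold 0 past 2-fold and lie near these shares. Of 20 serine, one-carbon and asparagine synthesis genes 0 were higher and 2 lower, and the median was -0.28, the lowest among the lists plotted, with 12 of the other 15 that passed negative. ALDH1L2, the mitochondrial formyl-folate enzyme, was at 8.92 and 7.51, and GLDC, of the glycine cleavage system, was at 8.10 and 6.81. ASNS, asparagine synthetase, at 9.41 and 8.44, and PSAT1, of serine synthesis, at 12.53 and 11.74, were lower by less than 2-fold. Ribosome biogenesis had 0 of 23 past 2-fold in either direction, 18 of them negative, a median of -0.24 and WDR43 as its largest difference, at 10.78 and 10.09. Aminoacyl-tRNA synthetases had 0 of 16, 13 of them negative, and a median of -0.19. The itaconate and citric acid cycle list had 0 of 22 and a median of -0.01. ACOD1, which makes itaconate, was under the filter at 4.01 and 3.92, as was NOS2, the inducible nitric oxide synthase, at 5.79 and 5.92, and both were looked up after the lists had been counted. In arginine and polyamine metabolism SAT1, the spermidine acetyltransferase, was at 8.66 and 10.64, and GCH1, the entry enzyme of biopterin synthesis, was at 7.999 and 9.47. Chromatin modifiers had 0 of 62 past 2-fold in either direction and a median of -0.02, with KDM5B, a histone demethylase, at 9.07 and 8.25.

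**Figure D3:**
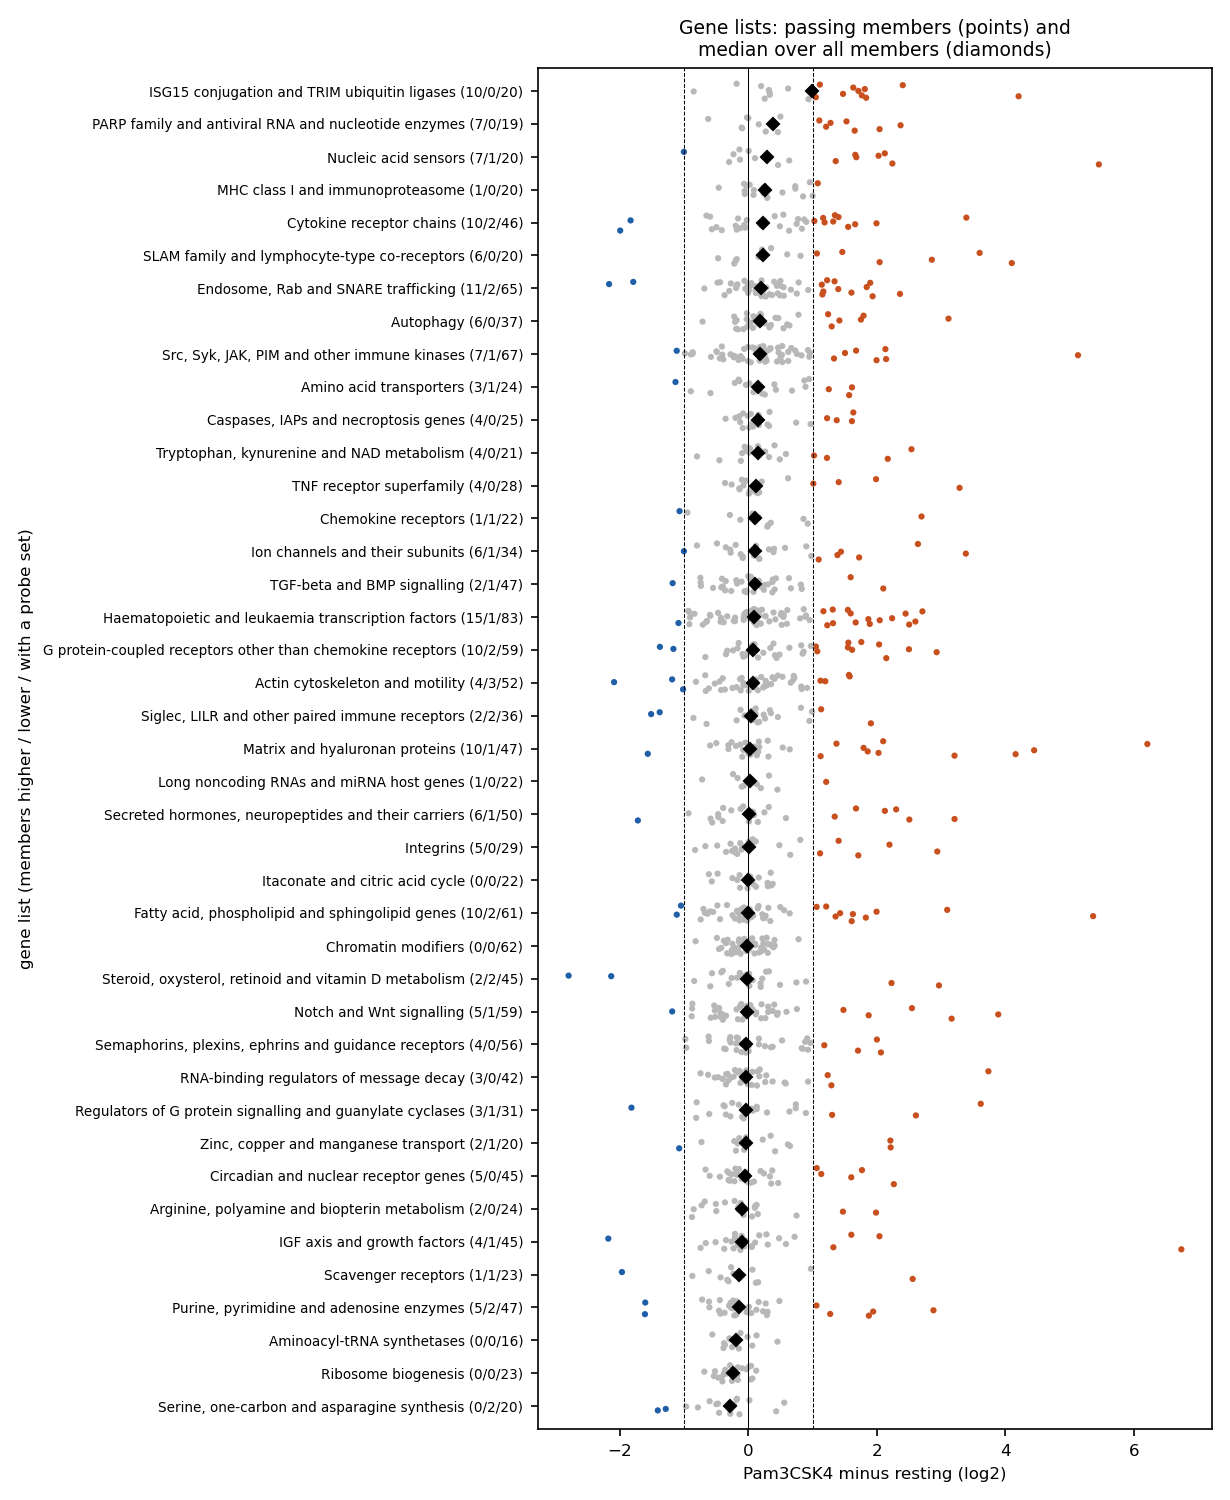
Each row is a gene list, with its counts of higher, lower and measured members in brackets; points are members that passed the filter (orange at least 2-fold higher, blue at least 2-fold lower, grey in between), the diamond is the median over all measured members, and the x axis is the Pam3CSK4 minus resting difference in log2. Medians run from 0.99 for ISG15 and TRIM genes to -0.28 for serine and one-carbon genes, and most lists are centred near 0 with single members far to the right.

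A group of 56 genes of heparan and chondroitin sulphate and of other sulphotransferases was assembled after the values were seen. In it 9 were higher and 1 lower, and the median was -0.04. Of the other 37 that passed 28 were negative. PAPSS1 and PAPSS2 make the sulphate donor PAPS and were at 7.88 and 9.69 and at 7.55 and 9.38. CHST2, one of the other sulphotransferases, acting on N-acetylglucosamine, stood at 6.77 resting, 10.82 with Pam3CSK4, 10.47 at 12 h and 10.76 at 24 h. EXT1, of the heparan sulphate polymerase, was at 6.40 and 7.66, and DSE, the dermatan sulphate epimerase, at 7.38 and 8.52. SDC4, a cell-surface carrier of these chains, was at 8.02 and 10.18, and SULF2, which trims sulphate outside the cell, was at 6.10 and 8.02. The lower member was EXTL2 at 8.39 and 7.30.

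Small leucine-rich proteoglycans gave a run on chromosome 12 in the order of protein-coding genes that passed the filter. Genes that did not pass can lie between them. LUM, lumican, read 3.40 resting, 7.41 with Pam3CSK4, 7.997 at 12 h and 7.73 at 24 h, and EPYC, epiphycan, read 3.18, 6.70, 7.91 and 7.06. DCN, decorin, read 7.14, 8.51, 9.03 and 8.35. The fourth gene of the run, ATP2B1, a plasma membrane calcium pump, was at 8.57 and 10.13. LUM and EPYC were far below the filter when resting, with 1 probe set each above the filter. EPYC has no other probe set. LUM has 2, and the other was under the filter on both arrays. LUM was no longer counted when probe sets were averaged or when those of the suffixes _x_at and _s_at were left out. DCN is a fibroblast marker as well. The other fibroblast markers did not move with it: COL1A1 was at 7.92 and 7.88, COL3A1 at 4.64 and 4.55 and PDGFRB at 6.84 and 6.71.

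Matrix and hyaluronan genes were higher in 10 of 47 and lower in 1, with a median of 0.03. CD44, the hyaluronan receptor, was at 9.91 and 11.93, and its 9 probe sets above the filter differed by 1.95 to 2.67. VCAM1, a ligand of integrins, was at 4.60 and 9.05. COL4A2 and COL6A1, collagen chains, were at 7.37 and 9.23 and at 9.02 and 11.12, but the 5 probe sets of COL6A1 reached down to -0.08. THBD, thrombomodulin, was at 9.40 and 11.19. Integrins were higher in 5 of 29, among them the collagen-binding ITGA1 at 4.32 and 7.26 and the shared chain ITGB2 at 12.87 and 13.99. ITGAM stood at 8.04 and 10.23, while its other probe set differed by -0.19. FERMT3, kindlin-3, which activates integrins, was at 10.19 and 11.90.

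Growth factor genes were higher in 4 of 45 and lower in 1, with a median of -0.11. IGFBP3, which binds insulin-like growth factors, had the largest difference of any gene above the filter on both arrays, at 6.26 and 13.004, and its other probe set differed by 4.89. Its resting value lay just above the filter, so background can bear on the size of the difference. Within the PDGF family PDGFA was higher, at 7.39 and 9.43, and PDGFD lower, at 8.84 and 6.66. VEGFA was at 9.58 and 11.18. In the TGF-beta and BMP list 2 of 47 were higher and 1 lower, beside 2.74% and 1.16% of all genes. The higher ones were the receptor ACVR2A at 6.01 and 8.11 and the inhibitor SMAD7 at 8.36 and 9.95. The lower one was the ligand BMP8B at 12.47 and 11.29, whose 3 probe sets ranged from -1.29 to 0.39. Among guidance genes 4 of 56 were higher and 0 lower, with SEMA6D at 5.72 and 7.78 and the co-receptor NRP1 at 5.50 and 7.50. Both had a resting value under the filter, and their other probe sets differed by 0.21 and 0.255 only. The secreted lectins LGALS2 and LGALS3 were at 6.25 and 8.75 and at 10.60 and 12.90. GHRL, the ghrelin gene, was at 7.18 and 9.30, and NUCB2, the precursor of nesfatin, was lower at 12.68 and 10.96.

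Actin genes were higher in 4 of 52 and lower in 3, with a median of 0.07. FSCN1, the bundling protein fascin, was at 9.84 and 11.42, and MARCKS, a membrane-to-actin linker, was at 11.21 and 12.77. NEXN, an actin-binding protein of muscle, was lower at 6.51 and 4.42.

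Endosome, Rab and SNARE genes were higher in 11 of 65 and lower in 2, with a median of 0.20. RIN2, a Rab5 activator, was at 5.17 and 7.53, RAB7B, of late endosomes, at 8.94 and 10.83, and STX11, a SNARE of immune cells, at 5.79 and 7.63. SYTL1 and RAB33A were lower, at 9.03 and 6.86 and at 8.33 and 6.54. Autophagy genes were higher in 6 of 37 and lower in 0, with a median of 0.19. DRAM1, a lysosomal membrane protein, led at 7.21 resting, 10.33 with Pam3CSK4, 10.90 at 12 h and 10.42 at 24 h. SQSTM1 and OPTN, cargo receptors, were at 9.48 and 11.28 and at 7.74 and 9.50, although SQSTM1 probe sets reached down to 0.04. TFEB, a regulator of lysosomal genes, was at 9.26 and 10.50. Among cell death genes 4 of 25 were higher: CASP1 at 10.85 and 12.22, CASP5 at 5.92 and 7.55, the caspase inhibitor CFLAR at 8.50 and 10.12, and XAF1 at 10.26 and 11.48. The 12 probe sets of CFLAR above the filter ranged from 0.30 to 1.68. BCL2, picked after its values were seen, was lower at 11.22 and 9.47, though its 3 probe sets ranged from -1.75 to -0.16.

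Ion channels and metal carriers had members past 2-fold in both directions, beside 2.74% higher and 1.16% lower over all genes. Of 34 channels 6 were higher and 1 lower, with a median of 0.10. Besides the purinergic channels, KCNJ2, an inward rectifier of potassium, was at 7.49 and 10.13. ORAI1, the store-operated calcium channel, was at 8.11 and 9.50. In metal transport 2 of 20 were higher and 1 lower. SLC11A2, the iron and manganese carrier DMT1, was at 8.03 and 10.25, STEAP4, a metal reductase, at 4.10 and 6.31, and SLC39A14, a zinc and iron importer, at 11.08 and 10.002. SLC40A1, ferroportin, the iron exporter, was lower at 9.002 resting, 6.58 with Pam3CSK4, 6.71 at 12 h and 6.86 at 24 h. Amino acid transporters were higher in 3 of 24 and lower in 1: the glutamate carrier SLC1A3 at 8.52 and 10.13, SLC15A3 at 7.73 and 9.30, SLC7A7 at 9.12 and 10.37, and SLC38A5 at 8.53 and 7.39.

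Regulators of message decay were higher in 3 of 42 and lower in 0, with a median of -0.03. ZFP36L1, which binds AU-rich elements, was at 5.31 and 9.04, but its difference was -0.26 without probe sets of the suffixes _x_at and _s_at. The regnase-family genes ZC3H12C and ZC3H12D were at 7.75 and 9.04 and at 9.63 and 10.87. In the steroid and retinoid list 2 of 45 were higher and 2 lower, beside 2.74% and 1.16% of all genes. ALDH1A1, which makes retinoic acid, was at 5.92 and 8.15, and DHRS9, which oxidises retinol and steroids, was lower at 12.54 resting, 10.40 with Pam3CSK4, 9.05 at 12 h and 10.13 at 24 h.

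Lower genes were fewer and their differences smaller: 28 of 229 were past 4-fold. Besides those above, they included DEFB1, an epithelial-type defensin, at 10.89 and 8.21, MYADM, a myeloid differentiation marker, at 12.09 and 9.50, PRTN3, the protease of azurophil granules, at 11.16 and 9.34, and the receptor phosphatase gene PTPRF at 12.06 and 10.23. Cell adhesion genes best known from neurons were among them. In a group of 43 assembled after the values were seen, 7 were lower and 2 higher, with CLSTN2, calsyntenin-2, at 9.78 and 7.51, CNTN4, contactin-4, at 9.25 and 7.46, and SLITRK5 at 8.50 and 6.74. CADM1, higher in that group, was at 7.65 and 9.28. Of 24 meiosis genes, also assembled then, 4 were lower, among them CCNA1, a cyclin of germ cells and leukaemias, at 8.47 and 6.91, and TEX15 at 7.90 and 5.85, and 1, the cohesin gene REC8, was higher at 8.02 and 9.03.

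Higher genes followed each other in several places in the order of genes that passed the filter. Taking protein-coding genes that passed the filter in RefSeq order, there were 11 runs of at least 3 adjacent genes at least 2-fold higher, holding 36 genes. There were 0 such runs of lower genes, which were fewer, 229 against 541. Genes that did not pass are left out of this order and can lie between. A gene under the filter when resting entered the order only through the Pam3CSK4 array, as did 3 of the 4 genes of the GBP run. How many runs the counts alone would give was not tested. Several of the runs were known families, such as GBP1, GBP2, GBP4 and GBP5 on chromosome 1, IFIT1, IFIT2, IFIT3 and IFIT5 on chromosome 10, and OAS1, OAS2 and OAS3 on chromosome 12. Members of such families can share probe sequence. Others joined genes of different kinds. OASL, P2RX7 and P2RX4 form a run on chromosome 12 with differences of 1.21, 3.38 and 1.72. On chromosome 16 the sorting nexin gene SNX20, the peptidoglycan sensor gene NOD2 and the deubiquitinase gene CYLD stood at 9.98 and 11.12, 7.20 and 9.20, and 7.24 and 9.11. On chromosome 7 HIPK2, TBXAS1, the thromboxane synthase gene, and PARP12 differed by between 1.08 and 1.29.

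Other probe sets of the same gene were the available measure of precision. Of the 541 higher genes 238 had several probe sets above the filter. In 221 of them all had the same sign and in 122 all were past 2-fold, and the median range was 0.78 log2. Of the 229 lower genes 84 had several, 77 with the same sign and 33 with all past 2-fold, and the median range was 0.46. The other 303 higher and 145 lower genes rest on 1 probe set. Averaging all probe sets of a gene, dim ones included, left 63 of the 262 genes named by rule uncounted, under 2-fold or under the filter. ACKR3 still differed by 1.08 but fell under the filter. Also among them were COL6A1, CPT1A, IRAK2, ITGA1, KMO, LUM, MAF, NRP1, PDE4B, PDE7B, RGS1, SESN3, SLC39A14, STEAP4, STING1, TDO2, YES1 and ZFP36L1. Leaving out probe sets of the suffixes _x_at and _s_at did so for DCN, IFNGR1, LGALS3, LPXN, LUM, PLA2G4C and SQSTM1, among others, and cyclic loess for P2RX1 and STING1.

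**Figure D4:**
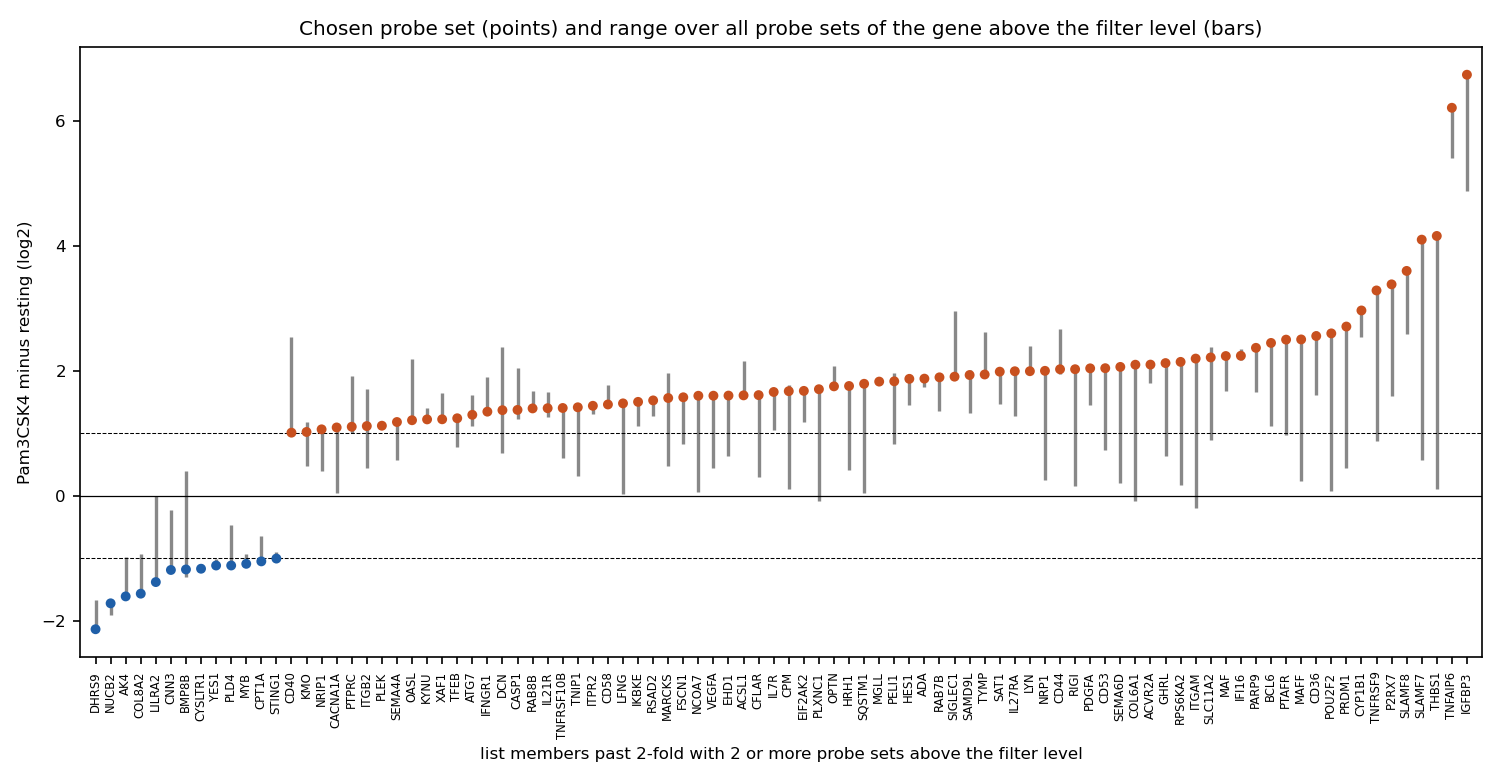
For 92 genes named from the lists that had several probe sets above the filter, the point is the Pam3CSK4 minus resting difference (log2, y axis) of the probe set used and the bar the range over all of that gene's probe sets; dashed lines mark 2-fold. The range exceeded 1 log2 in 40 of the 92 and crossed 0 in 4, and all probe sets were past 2-fold in 45.

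Promoter windows were matched to 419 of the 541 higher and 182 of the 229 lower genes. Each gene was read through 1 window, the first listed for it, which left 27195 of the 35116 windows listed. Each motif was searched on both strands, and motifs may overlap each other. The ISRE letters lay in 48 windows of higher genes (11.5%), in 1 of lower genes (0.549%), in 2.7% of windows of genes that passed and in 3.65% of all 27195 windows so kept. Among genes above the filter on both arrays, 35 of 261 whose window holds them were higher (13.4%), against 2.82% of the 9770 whose window does not. The NF-kB letters lay in 11.7% of windows of higher genes, 17.5% of those past 4-fold, 6.04% of lower, 7.61% of those that passed and 6.49% of all. The AP-1 letters TGANTCA lay in 9.79% of higher, 3.85% of lower and 7.73% of all windows.

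Windows of higher genes also differed in base composition, which bears on how often any letters occur. The median ratio of observed to expected CpG was 0.715 in higher genes, 0.591 in those past 4-fold, 0.712 in lower genes and 0.826 in genes that passed. TATAAA lay in 14.3% of windows of higher genes and 6.1% of those that passed, but in 12% of all windows. GGGCGG, the GC box, lay in 58.2% of higher, 60.4% of lower and 67.9% of windows that passed. Higher genes with a resting value under the filter had the most TATAAA matches, 23.1%, and the lowest CpG ratio, 0.488. The median GC content was 61.7% in higher, 65.5% in lower and 65% in genes that passed. The part of base composition in the motif shares was not tested.

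**Figure D5:**
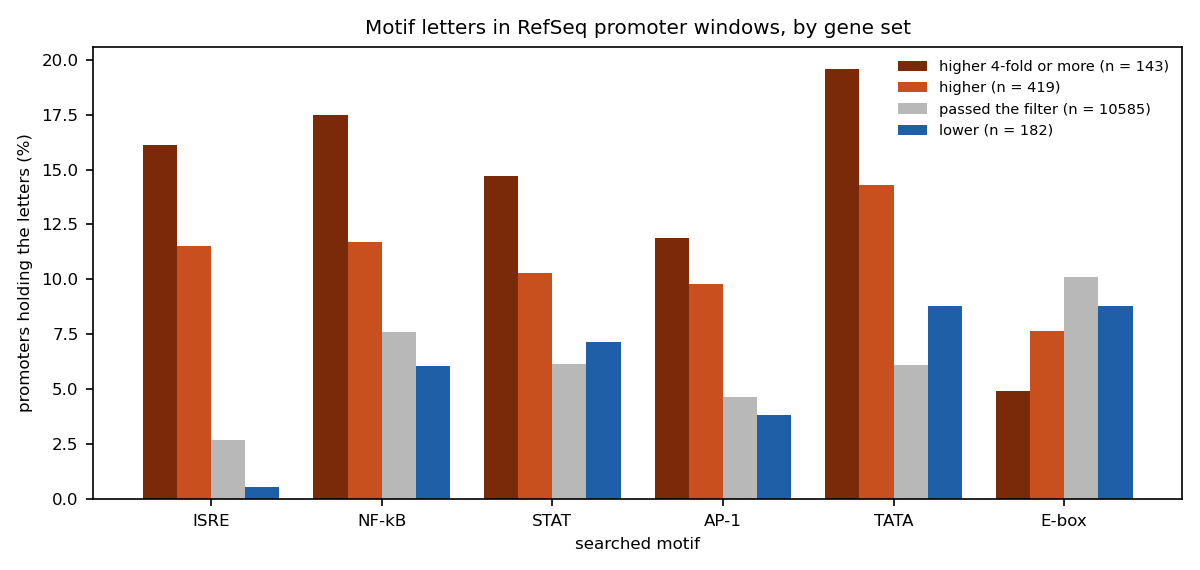
Bars give the share of RefSeq promoter windows (300 bases, y axis in percent) that hold each searched motif on either strand, for higher genes past 4-fold (143), all higher genes (419), genes that passed the filter (10585) and lower genes (182). The ISRE bars are 16.1%, 11.5%, 2.7% and 0.549% in that order. The E-box bars are 4.9% (7 of 143 windows), 7.64%, 10.1% and 8.79%, beside 7.45% of all windows.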

How the data were processed

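The deposited table holds log2 values of 54675 probe sets on 4 arrays. Per the submitters' processing notes the authors made these log2 values with RMA in affy 1.28.1, which corrects background and forces the arrays to a common distribution, so a global change in RNA content cannot be seen. Biotin-labelled RNA was hybridised, per the labels' protocols. Arrays were grouped by their source labels, and 0 columns stayed unmapped.

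A platform annotation table gave 1 gene for 41091 probe sets, several for 1801 and none for 11721, besides 62 controls. Identifiers of 41037 were found in RefSeq for GRCh38.p14, which updated 0 symbols. A gene was represented by its brightest probe set on average and was counted as higher or lower at 2-fold. Depth has no meaning for arrays, and their number limits the precision.

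The comparison, the gene lists and the rules were chosen with earlier results of these data known. Named by rule were the 20 largest differences in each direction among genes above the filter on both arrays with probe sets of one sign, up to 6 members per list and direction, the largest member of a list with none past 2-fold, members of neighbouring runs, TLR1, TLR2, TLR6 and cell markers. Other genes were picked after their values were seen. One gene list is not reported here. Alternatives covered the filter, the probe set, cyclic loess (limma 3.58.1, R 4.3.3, 3 iterations) and the threshold. Counting was checked on simulated arrays. Python 3.11.15, numpy 2.4.6, pandas 2.3.3 and matplotlib 3.10.9 were used.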

Additional observations from a re-analysis of the deposited data

How the results depend on the processing

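With 1 array a side nothing could be tested, and array number and signal over background limit every value. The counts of 541 higher and 229 lower genes became 995 and 790 at a 1.5-fold threshold and 306 and 67 at a 3-fold threshold. Under the other alternatives, of which those asking every probe set to pass and those filtering on both or on any of the 4 arrays were chosen after seeing the data, they stayed between 391 and 566 for higher genes and between 154 and 241 for lower genes. Without probe sets of the suffixes _x_at and _s_at, 404 of the 541 and 184 of the 229 were kept. In that setting ITGAM became -0.19, HES1 -0.16 and ZFP36L1 -0.26, so these 3 changed direction. The mean over probe sets left 63 of the 262 named genes under 2-fold or under the filter, and a filter at the 75th percentile took out 40. Cyclic loess moved 3 under 2-fold (P2RX1, SCIN and STING1) and TLR2 past it. Cyclic loess moved the median of all genes from -0.04 to -0.01. Averaging probe sets took the median of the ISG15 and TRIM list from 0.99 to 0.64. No paired analysis was possible because each condition has 1 array.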

Other observations

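Some genes outside the lists, picked after their values were seen, had large differences from a resting value under the filter, where background sets the size. RASGRP1, an activator of Ras known from T cells, stood at 3.40 resting, 8.59 with Pam3CSK4, 9.70 at 12 h and 8.47 at 24 h. GJB2, the gap junction gene connexin 26, was at 4.23 and 7.09, and CXCL14, a chemokine of epithelia, was at 5.16 and 11.31.

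On the lower side, and also picked after their values were seen, CLEC12A, an inhibitory lectin receptor of myeloid cells, was at 7.06 and 5.15, F13A1, the coagulation factor XIII chain, at 7.78 and 5.95, and LTC4S, leukotriene C4 synthase, at 8.32 and 6.97. SOCS2 was at 6.72 and 5.23, and PTPN22, a tyrosine phosphatase of immune cells, at 7.61 and 6.15. PINK1, the kinase that marks damaged mitochondria, was at 9.25 and 8.24.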
